A study of Mus musculus with 8 samples.

Results

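The comparison described here set the paws of collagen-immunised mice against the paws of mice given adjuvant alone, with the peptide MLIF as an added factor. It used all 8 arrays of the study: 4 from collagen-immunised mice and 4 from adjuvant mice. The question was which transcripts separated the sides whether or not MLIF had been given, and for which of them all 4 collagen arrays lay above, or all 4 below, the 4 adjuvant arrays.

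All mice were DBA1/J males aged 8 to 10 weeks, in 4 groups of 8 mice with 2 arrays each. The CIA group (collagen-induced arthritis) received an injection of chicken type II collagen (150 µg) emulsified in complete Freund adjuvant into the skin at the tail base and a booster in incomplete Freund adjuvant at week 3. The CIA+MLIF group received the same and MLIF through the nose every week, from before the first injection. The adjuvant group received complete and then incomplete Freund adjuvant without collagen, and the adjuvant+MLIF group received these with nasal MLIF. All 4 groups were therefore exposed to both adjuvants, so that the difference measured was that of collagen on top of adjuvant, and no untreated mice entered the comparison. MLIF is the monocyte locomotion inhibitory factor, a short peptide made by the amoeba Entamoeba histolytica. The sample labels place the collection of paws 4 weeks after the booster, and 300 ng of RNA from whole excised paws was labelled for Affymetrix Mouse Gene 1.0 ST arrays. Each group's 2 arrays are named biological replicates, without a statement of how many mice went into each, so p-values reflect only how far these arrays differed.

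In collagen-induced arthritis, immunity raised against foreign type II collagen turns on the animal's own joint cartilage, and the paws swell as synovium, bone and the surrounding soft tissue become inflamed. A paw also carries skin. The epidermis is a layered sheet of keratinocytes. Its basal cells make the keratin pair Krt5 and Krt14, the cells above them switch to Krt1 and Krt10, and the outermost cells cross-link loricrin, late cornified envelope proteins and related proteins into a hard shell sealed by ceramide lipids. Hair is built by a different set of keratins that are embedded in keratin-associated proteins.

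Values are log2 signals of probe sets as deposited, so a difference of 1 is a doubling, and levels are not compared between genes. The 8 arrays had median log2 signals of 6.66 for CIA replicate 1 and of 7.07 to 7.10 for the other 7. The correlation between the 2 arrays of a group ran from 0.9879 in CIA to 0.9988 in adjuvant+MLIF, and the SD of their difference from 0.324 to 0.0936. The adjuvant+MLIF arrays were thus closer to each other than those of any other group, where the smallest SD was 0.207 (adjuvant). The labels give no reason for this, and a setting reported at the end averages these arrays as 1. Markers of the labelled joint tissue were present in every array: the cartilage gene Col2a1 lay between 9.50 and 9.93, Acan between 9.57 and 10.20, and the joint lubricant gene Prg4 at 12.74 or above. The muscle actin Acta1 lay between 12.97 and 13.91.

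Many epidermal genes and some hair shaft genes were much higher in the collagen paws than in the adjuvant paws, with and without MLIF. The hair keratins Krt71 and Krt25, of the inner root sheath, were high in CIA but not in CIA+MLIF. A few interferon-induced genes and chemokines were lower in the collagen paws. Of 28944 probe sets, 259 (0.895%) were higher and 22 (0.076%) lower in the collagen arrays at an adjusted p under 0.05 in limma's additive model, which is what "rose" and "fell" mean below. All 259 rises (0.895%), and 18 of the 22 falls (0.0622% of all probe sets), had no overlap between the sides. Non-overlap by itself was far more frequent, at 2733 probe sets (9.44%), 802 with collagen higher (2.77%) and 1931 with collagen lower (6.67%). The balance of those last counts depended on array scaling, since it became 1569 higher and 1441 lower after quantile normalization, and 1270 and 1511 after array medians were set equal. The median log2 change over all probe sets was -0.14 as deposited, -0.01 after quantile normalization and -0.04 after centring.

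The rises were large and the falls small. The median rise was 1.83 on the log2 scale, 219 of 259 exceeded 1, 114 exceeded 2 and 47 exceeded 3. The nearest arrays of the opposing sides lay a median of 1.09 apart among the rises. The median fall was -0.79, and 2 of 22 exceeded 1 in size. The 235 rises with exactly 1 symbol stood for 233 genes, of which 115 belonged to a list of epidermal, hair or skin gland genes, 10 only to another list and 108 to no list.

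The suprabasal keratins held the largest changes. Krt1, the type II keratin that keratinocytes switch on as they leave the basal layer, read 12.83 and 13.24 in CIA, 12.76 and 12.91 in CIA+MLIF, 5.56 and 6.05 in adjuvant, and 6.34 and 6.30 in adjuvant+MLIF. All 4 collagen arrays lay over 6 log2 units above the highest adjuvant array, and the change was 6.87 (SE 0.19, adjusted p 3.99e-07 in limma). Krt10, its partner, read 12.87, 12.82, 11.64 and 11.98 in the collagen arrays in that order and 6.19, 6.67, 6.67 and 6.46 in the adjuvant arrays. Its change was 5.83 (SE 0.24, adjusted p 4.95e-06), again without overlap, and the CIA arrays were the highest.

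Krt2, a keratin of the uppermost living layers, read 12.23 and 12.25 in CIA, 10.36 and 10.46 in CIA+MLIF and 5.28 to 5.47 in the adjuvant arrays, a change of 5.97 (SE 0.31, adjusted p 1.68e-05). The 2 CIA+MLIF arrays thus sat below the CIA arrays and well above every adjuvant array. Krt9, the keratin of palm and sole skin, read 10.64 and 11.06 in CIA, 10.78 and 11.20 in CIA+MLIF and 5.60 to 6.29 in the adjuvant arrays. Its change was 5.00 (SE 0.16, adjusted p 9.67e-07), and CIA and CIA+MLIF arrays overlapped each other. Krt24, another type I keratin, changed by 6.21 and Krt78 by 1.24, so that 6 of 10 suprabasal keratins rose and none fell, with a list median of 3.29 against -0.14 over all probe sets. Krt76, Krt77, Krt79 and Krt80 did not pass, and the changes of Krt76 and Krt77 were -0.21 and -0.10.

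**Figure D1:**
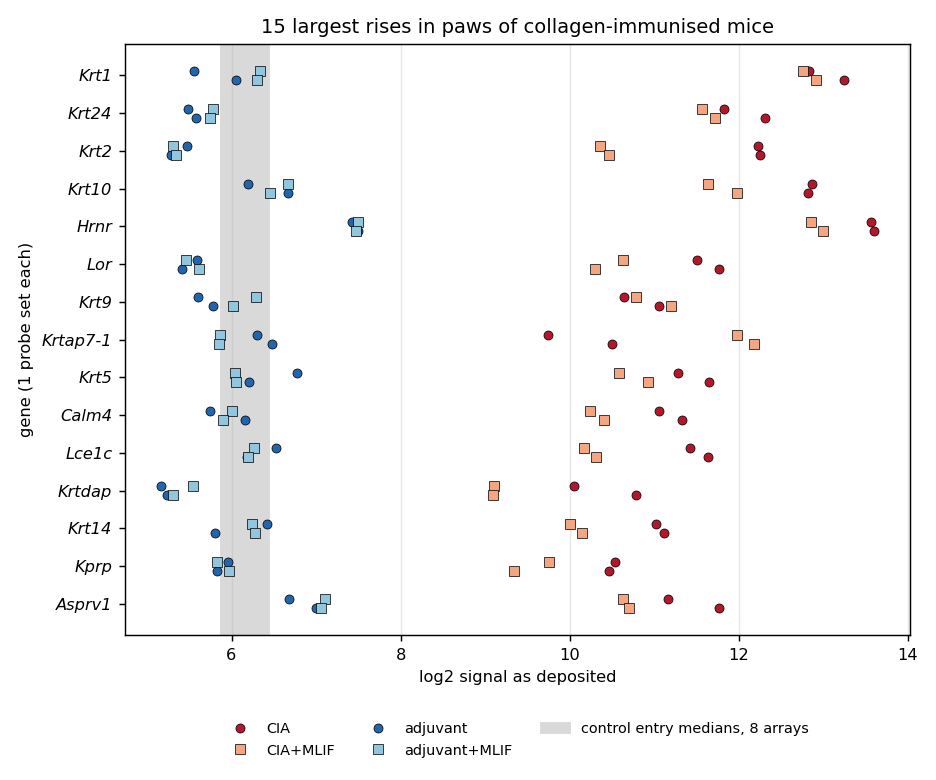
Log2 signal as deposited (horizontal axis) of the 15 named genes with the largest rises (vertical axis), 1 point per array; red circles are CIA, orange squares CIA+MLIF, blue circles adjuvant, light blue squares adjuvant+MLIF, and the grey band spans the medians of the presumed control entries on the 8 arrays, 5.88 to 6.44. In all 15 genes the red and orange points lie to the right of every blue point, most of which lie in or near the band.

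The plot of the 15 largest rises shows a wide empty interval between the sides for every gene in it. The adjuvant arrays lay near the band of the control entries for most of these genes, and wholly above it for Hrnr (7.42 to 7.50) and Asprv1 (6.68 to 7.10). The control entries, taken from their position and missing annotation to be array controls, had medians of 5.88 to 6.44. In 152 of the 259 rises the mean of the adjuvant arrays lay below the control median of those arrays, so for these the size of the change is not well determined. Krt1, Krt10, Krt5 and Krt14, the defining epidermal markers, had adjuvant means of 6.06, 6.50, 6.27 and 6.18, beside control medians averaging 6.32 on those arrays. The labels do not record how much skin each paw sample held. In bulk tissue, fewer cells of a type and less RNA per cell cannot be told apart, and the part of skin content in these rises was not tested.

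In the basal layer, Krt5 read 11.28 and 11.65 in CIA, 10.58 and 10.93 in CIA+MLIF, 6.77 and 6.21 in adjuvant, and 6.04 and 6.05 in adjuvant+MLIF, a change of 4.84 (SE 0.17, adjusted p 1.24e-06). Its partner Krt14 changed by 4.39 (SE 0.24, adjusted p 2.25e-05), and Col17a1, a hemidesmosome collagen that ties basal cells to the basement membrane, by 1.19. Sides did not overlap for any of the 3. These were 3 of 12 measured basal genes, and the list median was 0.21. The other hemidesmosome and basement membrane genes of the list did not pass: Itga6 changed by -0.16, Itgb4 by 0.07, Dst by -0.35 and Lama3 by 0.04. Trp63, the transcription factor that maintains basal keratinocytes, read 7.60 to 8.15 in the collagen arrays and 7.19 to 7.32 in the adjuvant arrays, without overlap, yet its change of 0.62 did not pass (adjusted p 0.163).

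The cornified envelope, the shell of the dead outer cells, gave the longest list of rises: 29 of 49 measured genes rose, none fell, and the median change was 1.67. Hrnr (hornerin, a histidine- and glycine-rich envelope protein) read 13.56 and 13.60 in CIA, 12.85 and 12.99 in CIA+MLIF and 7.42 to 7.50 in the 4 adjuvant arrays, a change of 5.78 (SE 0.15, adjusted p 3.99e-07). Lor (loricrin, the main envelope protein) read 11.50 and 11.76 in CIA, 10.63 and 10.30 in CIA+MLIF and 5.41 to 5.62 in the adjuvant arrays, a change of 5.52 (SE 0.24, adjusted p 6.14e-06). In both genes each CIA+MLIF array was below each CIA array, and every collagen array was far above every adjuvant array.

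Further envelope genes rose by 1 to 5 log2 units. Calm4, a calmodulin-like protein of skin, changed by 4.81, Krtdap, a keratinocyte differentiation protein, by 4.44, Kprp, a proline-rich keratinocyte protein, by 4.13 and Asprv1, the protease that trims profilaggrin, by 4.10. Late cornified envelope genes of the Lce1 group rose: Lce1c changed by 4.59, Lce1i by 3.17, Lce1e by 2.79 and Lce1a2 by 1.04. These paralogs are near-identical in part, and probe sets can share signal between them, so their separate values are uncertain. The cross-linking enzymes Tgm3 and Tgm1 changed by 2.45 and 1.50, and Casp14, the protease that helps break down filaggrin, by 1.20.

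Envelope genes outside the rises included the Lce3 genes, with changes from -0.25 (Lce3a) to 0.52 (Lce3c), and Ivl (involucrin) with 0.67 and an adjusted p of 0.260. Some of the members that missed the threshold were high mainly in CIA. Flg2, a filaggrin relative, read 7.85 and 8.66 in CIA but 5.52 and 5.87 in CIA+MLIF, against 4.70 to 5.20 in the adjuvant arrays. Its sides did not overlap, and its adjusted p was 0.195 in limma's additive model. In that model, a collagen difference that is unequal with and without MLIF counts as error. Sprr1a, a small proline-rich envelope precursor, behaved likewise, at 9.61 and 9.49 in CIA, 7.19 and 7.05 in CIA+MLIF and 6.30 to 6.47 in the adjuvant arrays (adjusted p 0.077).

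Barrier lipid genes also rose, with 13 of 21 genes higher, none lower and a median of 1.23. Elovl4, which lengthens the fatty acids of skin ceramides, read 10.26 and 10.57 in CIA, 8.66 and 8.61 in CIA+MLIF and 6.36 to 6.49 in the adjuvant arrays, a change of 3.08 (SE 0.31, adjusted p 0.00112). Acer1, an alkaline ceramidase, changed by 2.96, the lipoxygenases Alox12b and Aloxe3 by 2.11 and 1.75, the lipid transporter Abca12 by 2.01 and the ceramide synthase Cers3 by 1.44. Sides did not overlap in any of these 6 genes.

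Junction genes rose in 11 of 20 cases, with a median of 1.05 and none lower. Dsp (desmoplakin, which anchors keratin filaments to desmosomes) read 10.62, 10.96, 10.51 and 10.36 in the collagen arrays and 6.44 to 6.75 in the adjuvant arrays, a change of 3.99 (SE 0.15). Here CIA and CIA+MLIF lay close together. Perp, a desmosomal membrane protein, changed by 4.01 and the desmosomal cadherin Dsc3 by 3.73. The gap junction genes Gjb2 and Gjb6 changed by 1.90 and 1.07, and the epithelial cadherin Cdh1 by 1.27.

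Among skin proteases and their inhibitors 10 of 27 rose and none fell, with a median of 0.81. Serpinb5 (maspin) changed by 3.98, and Spink5, the inhibitor that restrains kallikreins in skin, by 3.21. The kallikreins Klk7 and Klk5, which release dead cells from the skin surface, changed by 2.10 and 1.59. Of 18 keratinocyte transcription factors 4 rose: Tfap2c by 1.52, Zfp750 by 1.36, Grhl1 by 1.16 and Tfap2a by 0.93. All 18 had a positive change, and the list median was 0.40. Without CIA replicate 1, or without CIA replicate 2, 6 protease and inhibitor genes passed in place of 10.

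The wound and stress keratins, so called because keratinocytes of injured or fast-growing epidermis make them, rose in 4 of 5 cases with a median of 2.05. Whether the epidermis of these paws was injured or growing fast was not tested. Krt6a read 7.06 and 7.58 in CIA, 8.20 and 7.88 in CIA+MLIF and 5.47 to 5.77 in the adjuvant arrays, a change of 2.05 (SE 0.21, adjusted p 0.00131). Krt16 read 6.55 and 6.96 in CIA, 8.09 and 7.90 in CIA+MLIF and 4.97 to 5.72 in the adjuvant arrays, a change of 1.96 (SE 0.26, adjusted p 0.00593). For both, the CIA+MLIF arrays were the highest, the reverse of the order seen for loricrin. Without CIA replicate 2, 2 of the 5 passed. Krt17 ran the other way, with 8.79 and 8.64 in CIA, 7.50 and 7.57 in CIA+MLIF and 5.59 to 6.07 in the adjuvant arrays.

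Some of the hair genes rose in the collagen arrays. Of 44 keratin-associated proteins, a list taken by symbol after the values were seen, 22 rose and none fell, with a median of 1.12. Krtap7-1, a glycine- and tyrosine-rich protein of the hair shaft, read 9.74 and 10.50 in CIA, 11.98 and 12.18 in CIA+MLIF, 6.30 and 6.48 in adjuvant, and 5.86 and 5.85 in adjuvant+MLIF. Its change was 4.98 (SE 0.45, adjusted p 0.000534). Krtap6-2 changed by 4.02, Krtap8-1 by 3.72 and Krtap11-1 by 3.23, each with no overlap between the sides. Keratin-associated proteins are a family of close paralogs, so single members may share signal.

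The 7 rises among 15 measured hair keratins were all hair shaft keratins, namely Krt84, Krt86, Krt33a, Krt33b, Krt31, Krt34 and Krt35, with changes from 0.96 (Krt35) to 2.78 (Krt84). Krt31 read 7.87 and 7.79 in CIA, 9.43 and 9.40 in CIA+MLIF and 6.23 to 6.70 in the adjuvant arrays. Keratins of the inner root sheath, the sleeve that moulds the growing hair, did not pass the main effect. Krt71 read 8.91 and 9.10 in CIA, 6.55 and 6.22 in CIA+MLIF and 6.17 to 6.50 in the adjuvant arrays. Krt25 read 7.91 and 8.22 in CIA, 5.50 and 5.46 in CIA+MLIF and 5.31 to 5.43 in the adjuvant arrays. Both were high in the CIA arrays and at the adjuvant level or just above it in CIA+MLIF, and both passed the interaction (adjusted p 0.000179 and 0.000264).

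**Figure D2:**
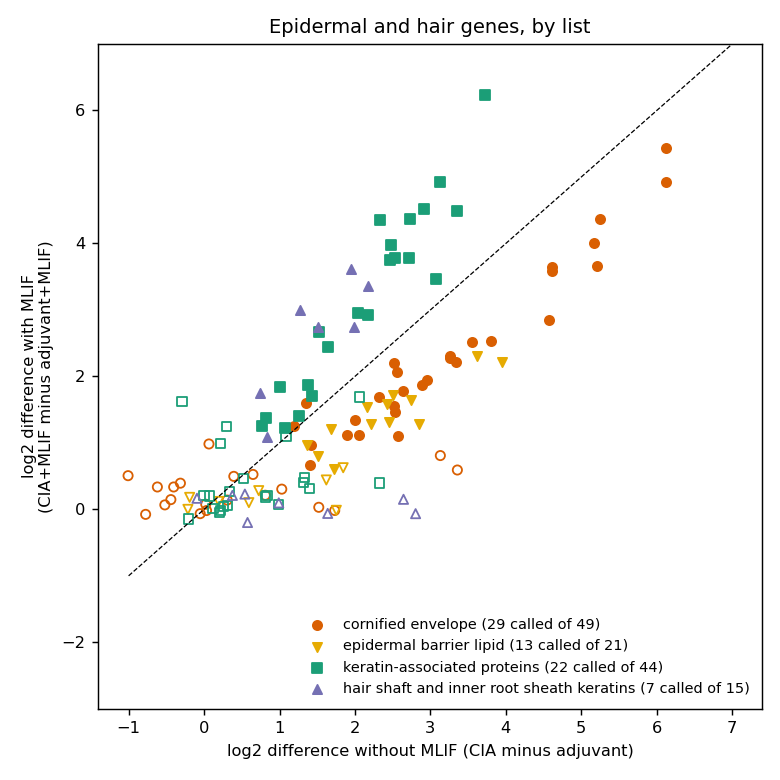
Collagen difference in log2 without MLIF (CIA minus adjuvant, horizontal axis) against the difference with MLIF (CIA+MLIF minus adjuvant+MLIF, vertical axis) for the members of 4 lists, 1 symbol per gene; filled symbols passed the main effect, open symbols did not, and the dashed line marks equal differences. Keratin-associated proteins (22 of 44 filled) and hair keratins (7 of 15) that passed lie above the line, and most cornified envelope (29 of 49) and barrier lipid (13 of 21) genes below it.

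The plot of epidermal and hair genes by list shows an opposite tilt among the members that rose. Of all 259 rises, 193 had a larger collagen difference without MLIF and 66 with it. A larger one without MLIF was found in 27 of 29 risen envelope genes and 13 of 13 barrier lipid genes. The same held for 11 of 11 junction genes and 10 of 10 protease and inhibitor genes. All 22 risen keratin-associated proteins and all 7 risen hair keratins had a larger collagen difference with MLIF than without. Over all measured members the hair lists did not tilt that way: the median difference of the 15 hair keratins was 1.27 without MLIF and 0.23 with it, with 13 and 7 higher, and that of the 44 keratin-associated proteins 1.29 and 1.32, with 30 and 22 higher. The test of that difference is the interaction of collagen and MLIF, which 2095 of all probe sets (7.24%) passed at an adjusted p under 0.05 in limma, 1626 (5.62%) more positive with MLIF and 469 (1.62%) more negative. That count was 4634 without CIA replicate 1, 13063 without CIA replicate 2, and 1053 to 1288 without any 1 of the other 6 arrays. Among the risen members it was passed by 7 of 22 keratin-associated proteins, 3 of 7 hair keratins, 7 of 29 envelope genes, 5 of 13 barrier lipid genes and 1 of 11 junction genes. Among all 15 hair keratins, risen or not, 3 passed it in each direction. The list counts depended on array scaling. After quantile normalization, 3 hair keratins passed with a positive and 6 with a negative interaction. Negative interactions then went from 11 to 27 of 49 envelope genes and from 1 to 6 of 20 junction genes. Among 44 keratin-associated proteins they went from 1 to 8, and positive ones from 7 to 12. The interaction was 2.50 for Krtap7-1 (adjusted p 0.00222), 2.03 for Krtap6-3 (0.00423), 1.81 for Krt90 (0.00100) and 2.17 for Krt6b (0.0149). The main effect of Krt6b missed the threshold without any 1 of 4 arrays (CIA replicate 2, CIA+MLIF replicate 2 and both adjuvant+MLIF arrays), and that of Krt90 without either of the first 2 of these. It was -1.78 for Krt2 (0.00109), -1.82 for the keratinocyte surface protein Ly6d (0.00901) and -1.20 for Lor (0.0203). Krt1, Krt9 and Krt5 had interactions of -0.71, -0.32 and -0.26 that did not pass.

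Several skin lists had no member that passed. None of 16 sweat gland and simple epithelium genes, none of 10 melanocyte genes, none of 7 epidermal immune cell genes and none of 14 skin antimicrobial genes passed, with medians of -0.01, -0.23, 0.02 and 0.36. Of 15 sebaceous gland genes 2 rose, the fatty acid carrier Fabp5 by 2.02 and Acsbg1, which activates long fatty acids, by 1.19.

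Examples from the 108 risen genes outside every list, picked after their values were seen, follow. Trim29, a tripartite motif protein, read 10.16 and 10.53 in CIA, 9.54 and 9.55 in CIA+MLIF and 6.09 to 6.23 in the adjuvant arrays, a change of 3.80 (SE 0.18, adjusted p 1.13e-05). Lgals7 (galectin-7 of stratified epithelia) changed by 3.33, Esrp1, which directs epithelial splicing, by 2.83, Aqp3, the water and glycerol channel of the epidermis, by 2.51 and Sfn, the keratinocyte 14-3-3 protein, by 2.41 in the higher of its 2 probe sets by change. Smaller rises were Socs3, an inhibitor of cytokine signalling, by 0.69 and F3, tissue factor, by 0.87. Socs3 read 8.67 and 8.94 in CIA, 8.58 and 8.57 in CIA+MLIF and 7.93 to 8.16 in the adjuvant arrays, close but not overlapping.

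Immune and signalling lists contributed few rises by number. In the lists named here, 1 or 2 genes each rose. Their shares ran from 4.55% (immediate-early) to 15.4% (interleukin 1 and 36 family), above the 0.895% of all probe sets. In the interleukin 1 and 36 family 2 of 13 rose, Il1f5, the antagonist of the interleukin 36 receptor, by 1.98 and Il1f8, an agonist of it, by 1.28. Mt4, a metallothionein of stratified epithelium, changed by 2.89 and the broadly made Mt2 by 1.32. They were the 2 rises among 22 antioxidant and metallothionein genes, with a median of 0.06. S100a14 changed by 2.33, the 1 rise among 14 S100 genes (median -0.04, 8 negative). The growth factor Ereg changed by 1.28, the 1 rise among 11 genes of the EGF family and receptors (median -0.02, 6 negative). Pla2g2f, a secreted phospholipase of skin, changed by 1.77, and 2 of 17 eicosanoid genes rose (median 0.09). Fosl2, an AP-1 subunit, changed by 0.70, the 1 rise among 22 immediate-early genes (median 0.12). The B and plasma cell list had 2 rises of 19, Prdm1 by 0.90 and Sdc1 by 0.81, both of which keratinocytes also make.

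Many of the genes that rose were neighbours in the genome. In the gene order of RefSeq (assembly GRCm38.p6), 85 of the 233 risen genes (36.5%) had a directly neighbouring measured gene that also rose. Of all measured genes, 1.17% rose. A neighbour on either side counted, so this share of single genes is lower than the like share for neighbours. Runs of 5 or more risen genes, with at most 3 other measured genes inside any interval, numbered 6 and held 70 genes. They were a run of 18 around the Krtap6 and Krtap13 genes, a run of 15 that held late cornified envelope genes and Kprp, 13 around the Krtap4 genes, 11 type I keratins from Krt33a to Krt42, 7 type II keratins from Krt87 to Krt5, and 6 serpins from Serpinb5 to Serpinb2. These are families of tandem copies, and shared probe signal between copies was not tested.

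Because so many keratinocyte genes moved together, the promoters of the lead genes are shown. The 250 bases before the transcription start are given 5′ to 3′ on the gene's strand from RefSeq (GRCm38.p6), with matches to TATAAA (the TATA box core) or TGANTCA (the AP-1 site) on either strand in capitals. Krt10 lies at chr11:99389365-99389614 (minus strand), Lor at chr3:92083143-92083392 (minus), Hrnr at chr3:93319499-93319748 (plus) and Krt5 at chr15:101712906-101713155 (minus).
Krt10: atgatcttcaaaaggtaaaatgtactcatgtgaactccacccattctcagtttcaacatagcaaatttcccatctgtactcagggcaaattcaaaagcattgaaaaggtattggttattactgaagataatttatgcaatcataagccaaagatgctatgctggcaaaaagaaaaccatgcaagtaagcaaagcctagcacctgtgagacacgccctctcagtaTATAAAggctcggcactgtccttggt
Lor: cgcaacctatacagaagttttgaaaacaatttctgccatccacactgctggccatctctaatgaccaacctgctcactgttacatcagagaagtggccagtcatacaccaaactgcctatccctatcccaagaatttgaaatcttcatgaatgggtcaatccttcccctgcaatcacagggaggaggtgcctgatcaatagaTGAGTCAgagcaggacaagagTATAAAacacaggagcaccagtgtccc
Hrnr: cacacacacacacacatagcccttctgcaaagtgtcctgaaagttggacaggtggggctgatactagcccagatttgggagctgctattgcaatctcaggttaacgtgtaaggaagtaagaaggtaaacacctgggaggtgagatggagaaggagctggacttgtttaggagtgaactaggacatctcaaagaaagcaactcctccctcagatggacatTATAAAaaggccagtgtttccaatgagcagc
Krt5: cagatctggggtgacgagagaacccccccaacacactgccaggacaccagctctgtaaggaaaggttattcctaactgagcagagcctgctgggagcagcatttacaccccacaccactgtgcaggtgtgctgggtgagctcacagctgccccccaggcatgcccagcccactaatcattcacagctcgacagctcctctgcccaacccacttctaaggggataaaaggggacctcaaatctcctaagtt
The TATAAA match began 26 bases before the start in Krt10, 27 in Lor and 31 in Hrnr, and Lor also had TGAGTCA 48 bases before it. Krt5 had neither motif in these letters. Over windows from 250 bases before to 50 after the start, 63 of 180 risen genes with a window (35%) held TATAAA, beside 15.7% of all 27025 genes with one. Those 27025 genes, also used for the next 2 motifs, were not limited to genes measured here. TGANTCA was found in 34 of 180 (18.9%) beside 8.97%. The core of the interferon-stimulated response element, also searched on both strands, was found in 9 of 180 (5%) beside 3.99%. Of the 8 fallen genes with a window, 5 held TATAAA, 2 held TGANTCA and 0 held that core. Paralogs in the runs share promoter sequence, so these genes are not independent, and a match is not a binding site.

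Among the falls with a gene name and no overlap, the 6 named by rule were chemokines or interferon-induced genes. The 2 falls larger than that of Cxcl9, the strongest at -1.37, belonged to probe sets without a gene name. Cxcl9, an interferon-gamma-induced chemokine that attracts T cells through CXCR3, read 6.61 and 6.79 in CIA, 7.22 and 7.40 in CIA+MLIF, 7.50 and 7.61 in adjuvant, and 8.42 and 8.37 in adjuvant+MLIF. The sides did not overlap but were 0.10 apart at the nearest arrays, and within each side the MLIF arrays were the higher. Its change was -0.97 (SE 0.12, adjusted p 0.00298). Rtp4, an interferon-induced chaperone of membrane receptors, read 7.70 and 8.16 in CIA, 8.07 and 8.17 in CIA+MLIF, 8.70 and 8.85 in adjuvant, and 9.14 and 9.10 in adjuvant+MLIF. Its change was -0.92 (SE 0.13, adjusted p 0.00929), with the sides 0.52 apart.

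Xaf1, an interferon-induced promoter of cell death, read 6.94 and 7.36 in CIA, 7.32 and 7.52 in CIA+MLIF and 7.96 to 8.10 in the adjuvant arrays, a change of -0.76 (SE 0.13, adjusted p 0.0291). Oasl2, an antiviral relative of the oligoadenylate synthetases, read 7.25, 7.51, 7.60 and 7.44 in the collagen arrays and 7.92 to 8.30 in the adjuvant arrays, a change of -0.71 (SE 0.12, adjusted p 0.0280). Collagen arrays lay below all adjuvant arrays in both. Ccl17, a chemokine that draws CCR4-bearing T cells, changed by -0.77 (adjusted p 0.0201), and Ccl5, which draws T cells and monocytes, by -0.71 (adjusted p 0.0392). The nearest opposing arrays were 0.11 apart for Ccl17 and 0.17 apart for Ccl5. The other falls were Irf7, Mybph and Opn1mw, whose sides overlapped, 3 genes with model or olfactory receptor names, 1 probe set with several symbols and 9 without a name, 3 of which held identical values on every array.

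**Figure D3:**
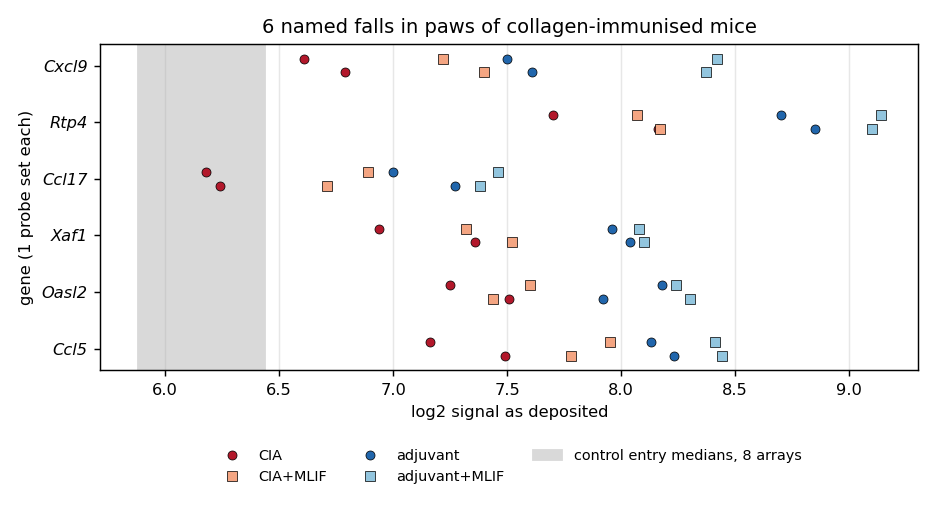
Log2 signal as deposited (horizontal axis) of the 6 genes named as falls (vertical axis), 1 point per array, with colours and shapes for the 4 groups and a grey band for the medians of the presumed control entries, 5.88 to 6.44. Red and orange collagen points lie to the left of the blue adjuvant points in each gene, at distances of 0.10 (Cxcl9) to 0.52 (Rtp4).

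The plot of the 6 falls shows how narrow their separation was beside the rises. In the interferon-induced list 3 of 19 measured genes fell (Cxcl9, Oasl2 and Irf7) and none rose, with a median of -0.45 against -0.14 over all probe sets. All 19 changes were negative as deposited, and 18 of 19 after quantile normalization or centring, with medians of -0.33 and -0.35. Irf7, the transcription factor that amplifies type I interferon, changed by -0.87 (adjusted p 0.0258), but its sides overlapped, since CIA+MLIF replicate 2 read 8.32 and adjuvant replicate 1 read 8.23. Ifit1 read 4.93 and 6.04 in CIA, 6.33 and 6.32 in CIA+MLIF and 6.84 to 7.22 in the adjuvant arrays and did not pass, at -1.15 and an adjusted p of 0.078. Of 29 chemokines 3 fell (Cxcl9, Ccl17 and Ccl5), with a median of -0.06 that became 0.05 under either other scaling. Only 1 interferon-induced gene passed without CIA+MLIF replicate 1, adjuvant replicate 2 or either adjuvant+MLIF array, and only 1 chemokine without CIA replicate 2, CIA+MLIF replicate 2 or any 1 of the 4 adjuvant arrays. CIA replicate 1, the array with the low median, was the lowest of the 8 in Cxcl9, Rtp4, Xaf1, Oasl2, Ccl5 and Ccl17, and all 6 still passed without that array.

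The falls depended on the fit, while the 15 largest rises did not. Under 17 other settings, Cxcl9 still passed in 16 and Rtp4 in 15, but Xaf1 passed in 10, Oasl2 in 9, Ccl17 in 8 and Ccl5 in 7, each with an unchanged direction. The 15 largest rises passed in all 255 combinations of gene and setting, with a largest adjusted p of 0.00988. The number of falls was 2 without adjuvant replicate 2 or adjuvant+MLIF replicate 1, 3 without adjuvant+MLIF replicate 2, 18 without CIA replicate 1, and between 11 and 14 without any 1 of the others, and the number of rises lay between 193 and 229 with any 1 array left out.

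The collagen difference was far broader without MLIF than with it. Without MLIF, 1245 probe sets (4.30%) were higher and 4108 (14.2%) lower in CIA than in adjuvant at an adjusted p under 0.05 in limma. With MLIF, 206 (0.712%) were higher and 5 (0.0173%) lower in CIA+MLIF than in adjuvant+MLIF. The 191 probe sets higher in both were 92.7% of the 206 and 15.3% of the 1245. The dim array, CIA replicate 1 (medians 6.66, and 5.88 for control entries, beside 7.07 and 6.44 in CIA replicate 2), lowers the difference without MLIF. How much of the excess of 4108 lower over 1245 higher came from array scaling was not tested. Calls in either direction numbered 8127 after quantile normalization and 7968 after centring. Leaving out CIA replicate 2 kept only the dim array in that group. The 5353 called without MLIF became 17706 without CIA replicate 2, and 2158 and 2150 without adjuvant replicates 1 and 2. The 211 called with MLIF became 441 without either CIA array, and between 128 and 133 without any 1 of the 4 MLIF arrays. Of the 259 rises of the main effect, 259 passed without MLIF and 189 with it, and of the 22 falls, 22 and 2.

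**Figure D4:**
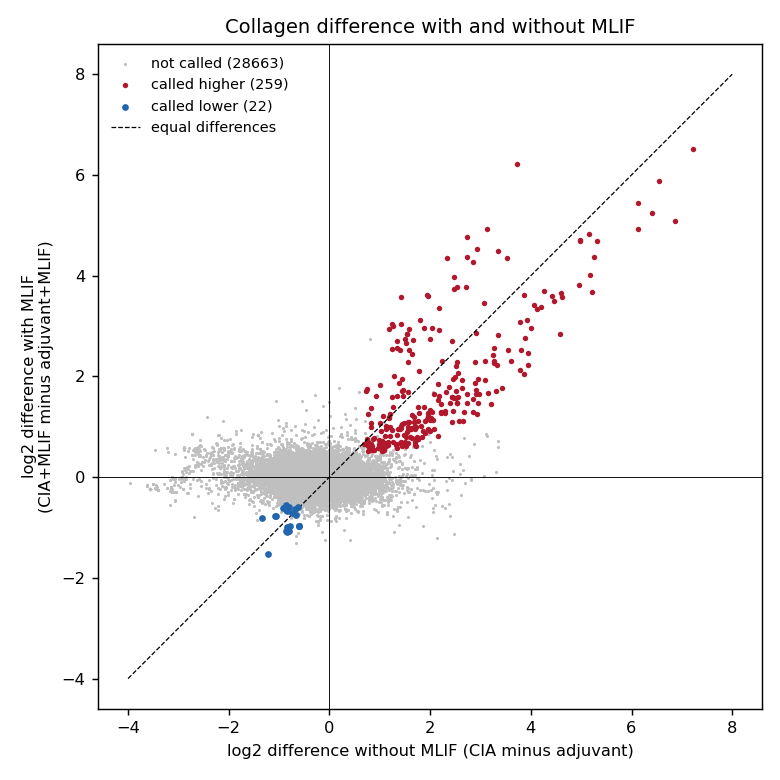
Collagen difference in log2 without MLIF (horizontal axis) against that with MLIF (vertical axis) for all 28944 probe sets, 1 point each; red points are the 259 called higher and blue points the 22 called lower in the main effect, grey points the others, and the dashed line marks equal differences. Grey points spread along the horizontal axis, and red points lie to the upper right on both sides of the dashed line.

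The plot of the collagen difference with and without MLIF shows what the main effect leaves out: a wide spread along the axis without MLIF that has no counterpart along the other. The neutrophil list is an example. Its 20 genes all had positive changes with a median of 0.70, yet none passed the main effect, 19 passed without MLIF and none with it, and 18 passed the interaction. In the fit of 4 group means, which keeps the interaction out of the error, 16 of the 20 were higher for the mean collagen difference, where 683 of all probe sets (2.36%) were higher and 1610 (5.56%) lower. S100a9, a calcium-binding protein abundant in neutrophils, read 10.35 and 10.65 in CIA, 8.23 and 8.83 in CIA+MLIF, 7.87 and 8.86 in adjuvant, and 9.73 and 9.76 in adjuvant+MLIF. The sides overlapped, since both adjuvant+MLIF arrays and 1 of the adjuvant arrays lay above both CIA+MLIF arrays. Among 15 fast muscle genes, 15 were lower without MLIF, beside 14.2% of all probe sets, and none passed the main effect. In the fit of 4 group means, 13 of the 15 were lower, beside 5.56% of all probe sets.

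No member of the cartilage, osteoclast, osteoblast, fibrillar collagen, matrix-degrading enzyme, fibroblast and synovial lining, macrophage, T cell, mast cell or pro-inflammatory cytokine lists rose or fell in the main effect. Their medians ran from -0.28 (mast cell) to 0.36 (fibrillar collagen and matrix). In the fit of 4 group means, by contrast, 9 of 21 fibrillar collagen and matrix, 10 of 25 matrix-degrading and 6 of 17 osteoclast genes were higher and 4 of 20 cartilage genes lower. The absence of calls therefore holds for the additive model, in which 0.971% of all probe sets were called in either direction. Osteoclast genes were higher without MLIF in 9 of 17 cases and in 0 with it. Fibrillar collagen and matrix genes were higher without MLIF in 16 of 21 cases, and again in 0 with it.

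**Figure D5:**
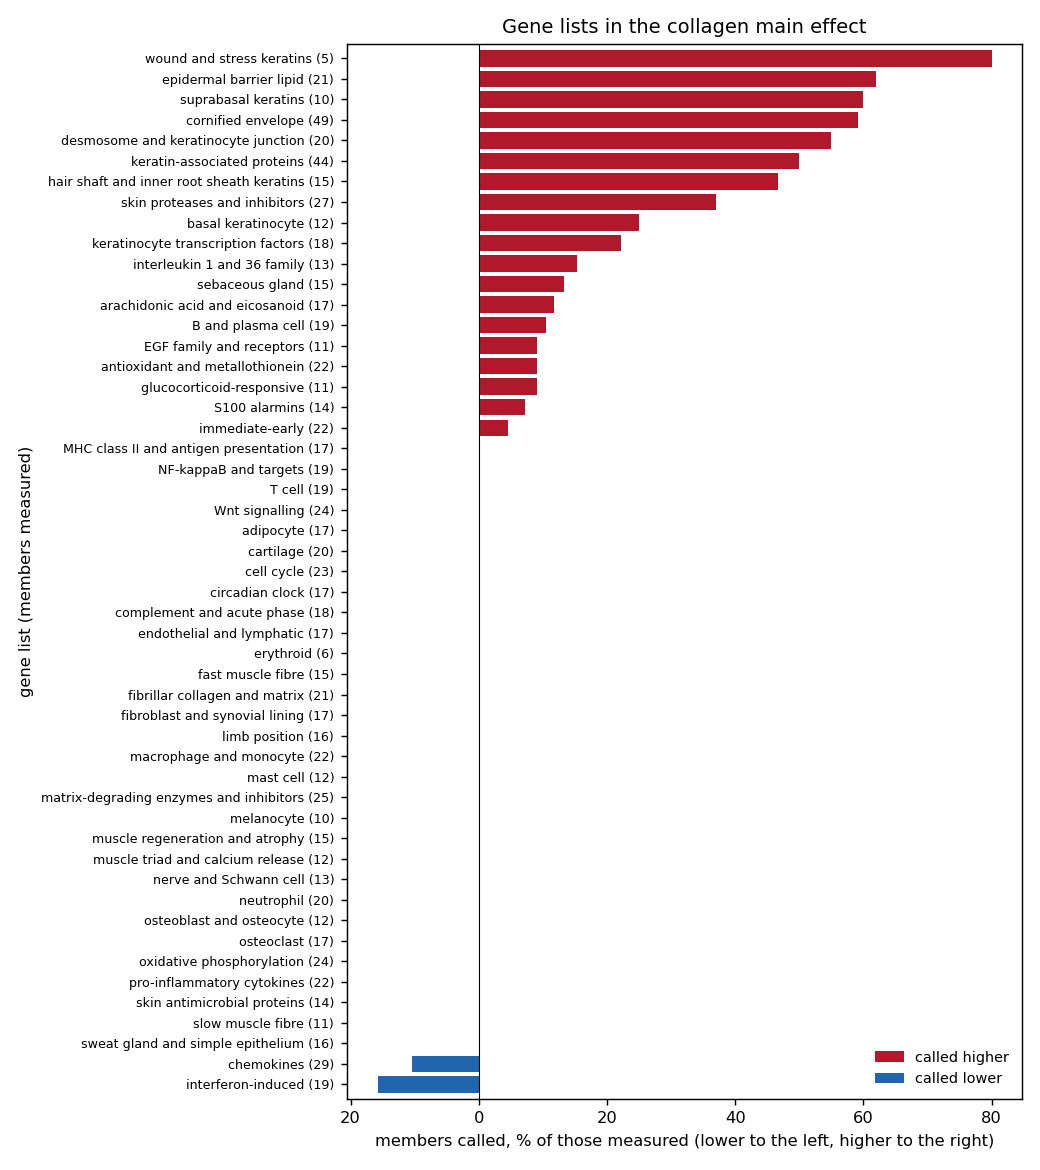
Percent of measured members called higher (red, to the right) and lower (blue, to the left) in the collagen main effect (horizontal axis) for 51 gene lists (vertical axis, members measured in brackets). The lists of epidermal immune cells, of all keratins and of sex-linked genes are not drawn. The 10 lists at the top, all of epidermis or hair, reach 22.2% to 80%, the interferon and chemokine lists are those with members called lower, and most other lists have none called.

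The plot of gene lists shows these shares. For comparison, 0.895% of all probe sets rose, a share that is not drawn. The nearest genes to the threshold were Fosl2, Sult2b1 and Gm8995 inside it, with adjusted p of 0.0454, 0.0476 and 0.0476, and Fam83h, Etv1 and Gimap3 outside it, with 0.0501, 0.0504 and 0.0504. Fitting the 4 group means in place of the additive model, which moves the interaction out of the error, gave 683 rises and 1610 falls for the mean collagen difference, so the short list of falls belongs to the additive model.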

How the data were processed

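Signals were measured on 8 Affymetrix Mouse Gene 1.0 ST arrays, per the labels' protocols. The authors deposited 1 table of log2 signals, from 1.84 to 14.9 with no value missing; the unit was read from the values. How background correction and normalization were done, and with what software, is not given in the sources used here. The first 6613 of 35557 entries lack annotation and were treated as array controls, an inference, which left 28944 probe sets for testing with no filter on signal. Symbols came from the platform annotation, which can be old: 21789 probe sets have 1 symbol, 1621 several and 5534 none. Arrays give no depth; their number limits the precision (median SE of a collagen change 0.15).

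The main effect was fitted with limma 3.58.1 (R 4.3.3) as collagen plus MLIF (5 residual degrees of freedom and 4.01 prior), with two-sided p-values, Benjamini-Hochberg adjustment over all 28944 probe sets and a threshold of 0.05. The differences with and without MLIF and the interaction came from a fit of 4 group means (4 residual and 4.96 prior degrees of freedom). In simulated data for the main effect, 17, 34, 50 and 50 of 50 probe sets changed by 0.5, 1, 2 and 3 were recovered, with 10 false calls among 28944 probe sets.

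The comparison and the gene lists were chosen with earlier results of these data known, and lists of keratin-associated proteins and of all keratins were taken by symbol after the values were seen; list members named as examples were also chosen then. Lists use 1 probe set per gene (highest mean) and are described by counts and medians, without a set test. The naming rule took, among probe sets with 1 symbol that passed without overlap, the 15 largest rises and falls (only 6 falls qualified) and the 8 widest gaps each way, and the 5 strongest interactions in each direction among those that also passed the interaction; clone, model, receptor-cluster and segment names were passed over. Replicate numbers were not taken to pair arrays, since deviations of same-numbered arrays correlated from -0.11 to 0.39. Promoters came from RefSeq (GRCm38.p6), where 180 of 233 risen and 8 of 12 fallen genes had a window. Figures used Matplotlib 3.10.9 in Python 3.11.15.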

Additional observations from a re-analysis of the deposited data

Results flagged for a closer look

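In 11 of the named genes the collagen difference itself differed between mice with and without MLIF, by the interaction test of limma (adjusted p under 0.05 over all probe sets). It was smaller with MLIF by -1.78 for Krt2 (adjusted p 0.00109), -1.82 for Ly6d (0.00901), -1.55 for Krtdap (0.0193), -1.20 for Lor (0.0203), -1.17 for Krt10 (0.0407), -1.16 for Lce1c (0.0191) and -1.15 for Krt14 (0.0465). It was larger with MLIF by 2.50 for Krtap7-1 (0.00222), 2.17 for Krt6b (0.0149), 2.03 for Krtap6-3 (0.00423) and 1.81 for Krt90 (0.00100). In all 11, the difference was positive on both sides: for Krt2 it was 6.86 without MLIF and 5.09 with it, and for Krtap7-1 it was 3.73 and 6.23. Groups of 2 arrays are too small for a check of single outlying arrays.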

How the results depend on the processing

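No gene named by rule changed direction under these settings. Outside that set, the suprabasal keratins with a negative change, Krt76 and Krt77 as deposited, numbered 1 in place of 2 after quantile normalization or centring. Balances also changed: non-overlap went from 802 higher and 1931 lower to 1569 and 1441 after quantile normalization, and the chemokine median from -0.06 to 0.05 after quantile normalization or centring. The main counts were 259 rises, 22 falls, 2095 probe sets past the interaction, 5353 past the difference without MLIF, 211 past that with MLIF, 2733 without overlap and 130 list members called. Falls numbered 44 after quantile normalization, 43 after centring, 35 with a trended and robust variance, 106 with array weights, 6 without the MLIF term, 9 with the replicate block, 2 at an adjusted p under 0.01, 2 with a log2 change over 1 as well, and 3 with the adjuvant+MLIF arrays averaged as 1. A fit of 4 group means gave 683 rises and 1610 falls, turning their balance. The interaction count was 5037 after quantile normalization, 4725 after centring, 841 averaged per gene, 1087 at an adjusted p under 0.01 and 1050 with the adjuvant+MLIF arrays averaged. The count without MLIF was 8127 after quantile normalization, 3303 averaged per gene, 1987 with array weights and 3530 with the averaged arrays, and the count with MLIF 413 after quantile normalization, 340 after centring, 660 with array weights and 132 with the averaged arrays. Quantile normalization kept 253 of the 259 rises and 16 of the 22 falls, and centring 252 and 17.

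Leaving out 1 array in turn gave 193 to 229 rises, 2 to 18 falls, 1053 to 13063 interactions (13063 without CIA replicate 2), 2150 to 17706 differences without MLIF (17706 without CIA replicate 2), 128 to 441 with MLIF, 3083 to 5729 probe sets without overlap (5729 without CIA+MLIF replicate 2) and 104 to 119 list members. Where a group was left with 1 array, that array was assumed to vary like the other groups. The replicate block gave 222 rises, 9 falls, 2024 interactions, 5212 differences without MLIF, 200 with MLIF and 119 list members; the labels share only replicate numbers, so this is not a paired analysis. Dim probe sets limit the sizes: 152 rises had an adjuvant mean below the control median.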
